A study of Mus musculus with 8 samples.

Results

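The 10 genes described here are the D-type cyclins Ccnd1, Ccnd2 and Ccnd3, the E-type cyclins Ccne1 and Ccne2, the G-type cyclins Ccng1 and Ccng2, and the CIP/KIP inhibitors Cdkn1a, Cdkn1b and Cdkn1c, whose proteins are p21, p27 and p57. They were chosen by name, with earlier results of these data known. Their counts are set beside the shares of all tested genes as a description, not as a test of the set. All 10 had values in the deposited table, among 17488 genes with values and 48321 genes listed, and all 10 passed the filter on low values, which kept 13959 genes. The RNA came from mouse E14 embryonic stem cells (strain 129/Ola) and was sequenced in 8 libraries, 2 in each of 4 groups. In the GSK3β line the kinase gene Gsk3b was knocked out and GSK3β-L132G was expressed from a transgene. In the GSK3α line Gsk3a was knocked out and GSK3α-L195G was expressed from a transgene. Each line was studied with 5 µM 3MB-PP1 for 2 h and untreated, and all 4 groups had been kept for 6 h in serum-free N2B27 medium. The L132G and L195G changes make the kinase analog-sensitive: they open its ATP pocket to bulky inhibitors such as 3MB-PP1, which wild-type kinases mostly do not bind. Each kinase is represented by 1 line, the labels do not give the promoter of the transgenes and name no vehicle for untreated cells, and no line without a mutant kinase is included, so there is no control for what the compound does through other kinases.

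Progress from G1 into DNA synthesis is driven by cyclin-dependent kinases. D-type cyclins bind CDK4 and CDK6, E-type cyclins bind CDK2, and both pairs phosphorylate the retinoblastoma proteins, which releases E2F transcription factors. The CIP/KIP proteins bind cyclin-CDK complexes and hold CDK2 back, and p21 and p27 also help cyclin D and CDK4 to assemble. Cyclins G1 and G2 are atypical: they do not drive G1 entry, Ccng1 is a classic target of p53 and feeds back on it through MDM2 and PP2A, and Ccng2 is a FOXO target linked to cell cycle arrest. GSK3 is known to phosphorylate cyclin D1, cyclin E1 and p21 and so mark them for degradation, a control on protein that RNA values do not show. Mouse embryonic stem cells are known for a short G1 phase, abundant cyclin E and little cyclin D.

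With 3MB-PP1 the GSK3β line had more Cdkn1a and less Cdkn1c, Ccng2, Ccne2, Ccne1, Ccnd2 and Ccnd1 RNA, so that 7 of the 10 genes passed the test, 1 higher and 6 lower, where 14.9% of all tested genes passed (7.49% higher and 7.44% lower). The largest changes were those of Cdkn1a, with a log2 change of 0.92, Ccng2 with -0.91 and Cdkn1c with -0.75. In the GSK3α line the same treatment moved 1 of the 10 past the threshold, Ccnd2, which was lower, with a log2 change of -0.25, where 0.881% of all tested genes passed (0.265% higher and 0.616% lower). The changes of 3 of the 10, Cdkn1a, Cdkn1c and Ccng2, differed between the lines by the test of that difference, 1 in the higher and 2 in the lower direction, where 6.53% of all tested genes passed (3.62% higher and 2.9% lower). Before treatment the lines already differed in 8 of the 10 genes, where 48.2% of all tested genes did (22.3% higher and 25.9% lower in the GSK3β line). Single libraries moved these totals, down or up. Those of the GSK3β line and of the difference rose without the second untreated library of the GSK3β line. In the GSK3β line 2084 genes passed by limma, 855 without its first treated and 1183 without its first untreated library. The GSK3α line had 123 such genes, 17 without its first and 25 without its second treated library, 57 without its first and 58 without its second untreated library. There were 191 and 185 without the first and second untreated library of the GSK3β line. The difference passed for 911 genes, for 351 without the first treated and 573 without the first untreated library of the GSK3β line, and for 465 and 473 without the first and second treated library of the GSK3α line. The test was limma on log2(value + 1) over all 13959 genes, with Benjamini-Hochberg adjusted p-values and a threshold of 0.05. The added 1 slightly understates the fold change of the genes with low values.

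Reads assigned to genes were estimated at 21.5 to 32.4 M a library, and the 10 genes had 344 to 14487 estimated reads in each library. The counting error, taken for each gene at the library of a group with fewer reads, was 0.861 to 5.39%. Values are the authors' scaled gene counts. Replicate libraries of a group differed by more than the counting noise expected from these estimated reads, with an SD of the log2 difference over genes of 0.118 to 0.143. The labels do not say whether they came from separate cultures, so p-values measure only the spread between these libraries. Gsk3a had 77.6 to 79.9 with 3MB-PP1 and 76.2 to 77.9 untreated in the GSK3β line, and 141 with 3MB-PP1 and 155 to 160.0 untreated in the GSK3α line. Gsk3b had 249 to 258 with 3MB-PP1 and 235 to 256 untreated in the GSK3β line, and 52.7 to 55.3 with 3MB-PP1 and 54.7 to 58.2 untreated in the GSK3α line. Each line thus had a higher value than the other line for the gene named like the mutant kinase it carries, and how reads of the transgenes were counted is not given in the sources used here. All 12 embryonic stem cell markers examined had values, with summed levels of 7172 to 7366 with 3MB-PP1 and 7162 to 7194 untreated in the GSK3β line, and 7195 to 7273 with 3MB-PP1 and 7137 to 7314 untreated in the GSK3α line. Behind these sums 4 of the 12 were higher and 3 lower with 3MB-PP1 in the GSK3β line by limma, and 1 was higher and 0 lower in the GSK3α line. The naive pluripotency factors Tfcp2l1 (350.3 with 3MB-PP1 and 213 untreated, log2 0.72, adjusted p = 1.78e-09) and Klf2 (187 with 3MB-PP1 and 129.5 untreated, 0.53, adjusted p = 1.66e-09) were among the higher ones in the GSK3β line. The growth factor gene Fgf4 was among the lower ones (182 with 3MB-PP1 and 262 untreated, -0.52, adjusted p = 1.78e-09). In the GSK3α line the mean of Fgf4 lay in the other direction, with 253 with 3MB-PP1 and 230 untreated.

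**Figure D1:**
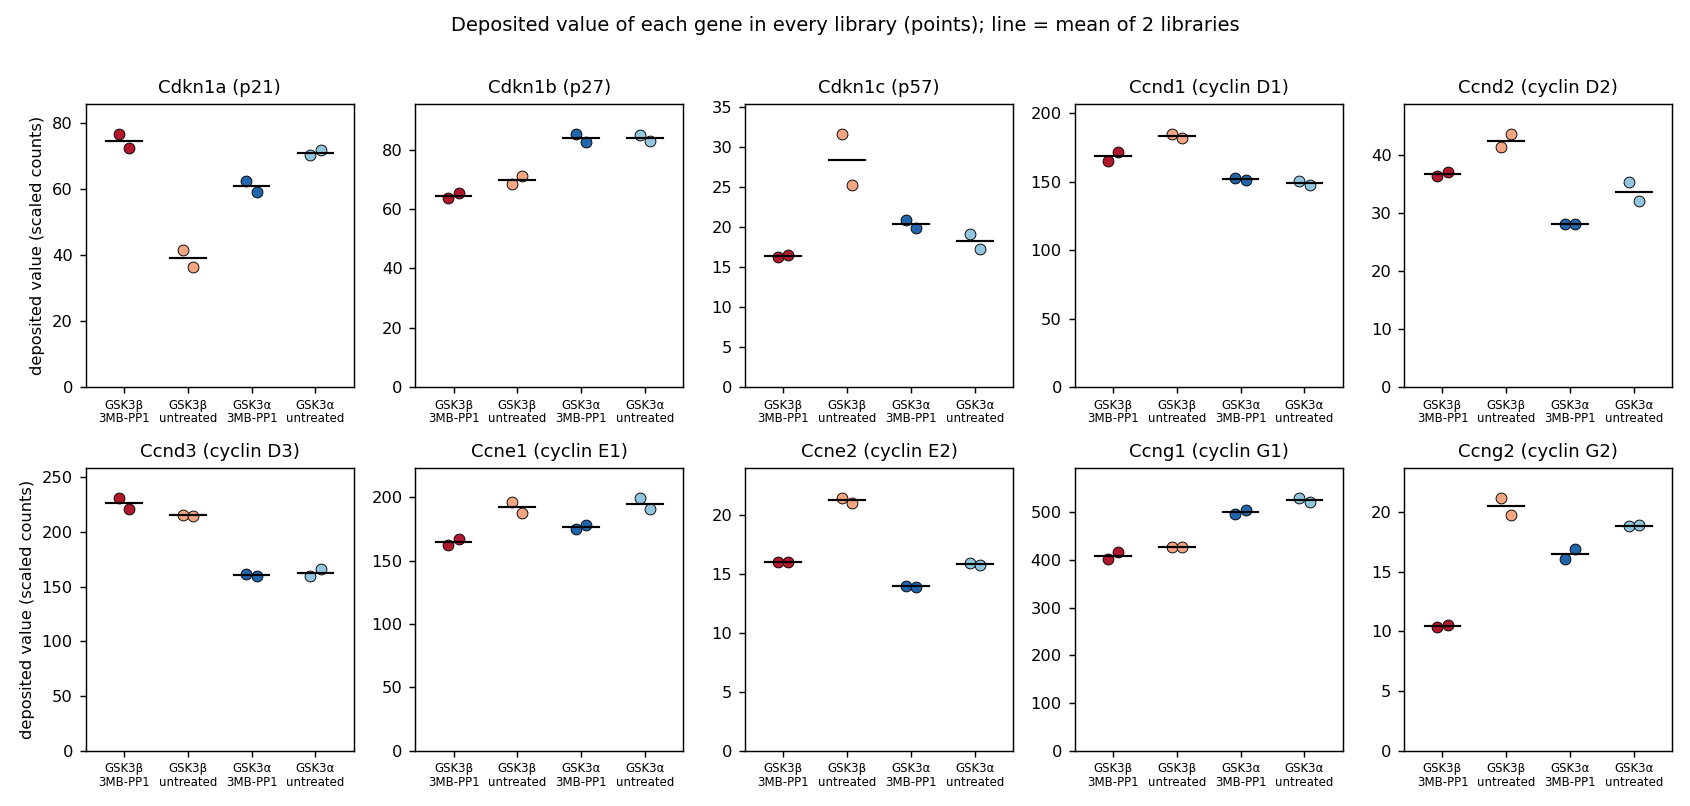
Deposited values of the 10 genes in all 8 libraries, 1 panel a gene; the y axis is the authors' scaled gene count and starts at 0, points are libraries and the short lines are the means of the 2 libraries of a group. Cdkn1a reaches 76.5 and 72.2 in the GSK3β line with 3MB-PP1 and lies at 41.6 and 36.4 in the same line untreated, whereas Ccng2 lies at 10.3 and 10.5 with 3MB-PP1 and at 21.2 and 19.7 untreated.

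The first question is how the CIP/KIP inhibitors responded to 3MB-PP1. Cdkn1a encodes p21, an inhibitor of CDK2 that p53 and many other factors induce (chromosome 17, 29090976 to 29100727, plus strand, mm10). Its values in the GSK3β line were 76.5 and 72.2 with 3MB-PP1, against 41.6 and 36.4 in untreated cells. Both treated libraries lay well above both untreated ones. The means were 74.4 ± 3.03 with 3MB-PP1 and 39.0 ± 3.66 untreated (SD, n = 2 each), a log2 change of 0.92 ± 0.05 (SE, 95% interval 0.81 to 1.03, limma adjusted p = 8.36e-10). Cdkn1a in the GSK3α line had 62.5 and 59.2 with 3MB-PP1 and 70.2 and 71.8 in untreated cells. There the treated libraries were the lower ones, again without overlap, but the log2 change of -0.22 ± 0.05 missed the threshold (limma adjusted p = 0.0547). It passed with median-ratio scaling (log2 -0.23, adjusted p = 0.0455), with the libraries of the GSK3α line alone (0.00725) and without either untreated library of the GSK3β line (0.00744 without the first and 0.00726 without the second). The difference between the lines in this change, GSK3β minus GSK3α, was 1.14 ± 0.07 on the log2 scale (limma adjusted p = 4.84e-08).

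Cdkn1a is annotated with more than 1 start site, and promoters were matched in the RefSeq table (build GRCm38.p6, the sequence of mm10) for 6 of the 10 genes. Of these 6 genes, 2 have a match to the 20-letter p53 full site with at most 1 letter differing in the 250 bases before a start: Cdkn1a, at 51 to 32 bases before its first start, and Ccng1, at 195 to 176 bases before its start. Of all 32851 promoters, 25 (0.076%) hold such a match. The stretches before those starts are shown because both genes are textbook p53 targets with that match, and in the GSK3β line Cdkn1a passed the test while Ccng1 did not, with no test of the one against the other. Capitals mark the p53 match, in Ccng1 also 3 CCAAT boxes (CCAAT on either strand, found in 33.85% of promoters), and before the second start of Cdkn1a a pair of GC boxes (GGGCGG on either strand, 32.742% of promoters). Each is given 5′ to 3′ on the strand of its gene, without bases of that gene's annotated exons. An annotated exon of an antisense gene overlaps the stretch before the second start of Cdkn1a. The Cdkn1a stretches lie at chr17:29090729-29090975 and chr17:29093519-29093768 on the plus strand, and that of Ccng1 at chr11:40755312-40755536 on the minus strand.
Cdkn1a, first start: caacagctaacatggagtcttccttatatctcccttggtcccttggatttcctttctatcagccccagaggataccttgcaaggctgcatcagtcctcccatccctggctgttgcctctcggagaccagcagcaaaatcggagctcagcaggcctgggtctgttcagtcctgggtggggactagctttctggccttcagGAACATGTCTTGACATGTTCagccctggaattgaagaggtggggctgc
Cdkn1a, second start: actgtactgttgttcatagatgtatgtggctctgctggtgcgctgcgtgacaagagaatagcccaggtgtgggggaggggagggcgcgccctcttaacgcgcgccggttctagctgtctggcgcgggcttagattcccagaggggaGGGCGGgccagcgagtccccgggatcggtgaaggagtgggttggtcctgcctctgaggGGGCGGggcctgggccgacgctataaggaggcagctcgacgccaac
Ccng1: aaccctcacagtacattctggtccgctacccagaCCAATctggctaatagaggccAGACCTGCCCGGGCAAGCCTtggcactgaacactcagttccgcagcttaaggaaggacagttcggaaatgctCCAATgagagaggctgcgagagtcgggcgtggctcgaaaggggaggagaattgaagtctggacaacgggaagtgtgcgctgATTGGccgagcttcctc
The E2F (TTTNGCGC), E-box (CACGTG), TCF/LEF (CTTTGAT), FOXO (GTAAACA), CHR (TTTGAA) and ATF/CREB (TGACGTCA) motifs were also searched on both strands, and they are found in 1.132%, 6.021%, 3.205%, 3.166%, 15.987% and 1.546% of all promoters. Their letters are not in these 3 windows, and none of the marked matches overlap. A match describes the letters only, and says nothing of binding.

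Cdkn1b and Cdkn1c encode p27 and p57. Cdkn1b (chromosome 6, 134920401 to 134925513, plus strand) had 63.8 and 65.3 with 3MB-PP1 and 68.4 and 71.0 untreated in the GSK3β line, and the log2 change of -0.11 ± 0.04 missed the threshold (95% interval -0.19 to -0.03, limma adjusted p = 0.0586). Its GSK3α values were 85.2 and 82.7 with 3MB-PP1 and 84.87 and 82.98 untreated, and these libraries overlapped (log2 0.00, limma adjusted p = 0.997). Cdkn1c is an imprinted gene expressed from the maternal allele (chromosome 7, 143458339 to 143461050, minus strand). It had 16.3 and 16.4 with 3MB-PP1, against 31.6 and 25.2 untreated, in the GSK3β line. The treated libraries were the lower ones, and the untreated pair was spread more widely than any other pair of this gene. Cdkn1c fell by 0.75 on the log2 scale (SE 0.08, limma adjusted p = 2.79e-06), to a mean of 16.4 ± 0.122 with 3MB-PP1, against 28.4 ± 4.48 untreated (SD, n = 2 each). In GSK3α cells the values were 20.9 and 19.8 with 3MB-PP1 and 19.1 and 17.3 untreated, and the log2 change of 0.16 missed the threshold (limma adjusted p = 0.472). The change differed between the lines by -0.91 ± 0.12 (limma adjusted p = 5.65e-05), a call that ended when limma was run without its trend (adjusted p = 0.0533). These values come from whole cultures, where fewer cells of a type and less RNA per cell cannot be told apart.

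Beside these changes, markers of other cell types were examined in the same libraries. Neural markers, 6 of 8 with values, summed to 225 to 233 with 3MB-PP1 and 164 to 175 untreated in the GSK3β line, and to 168.5 to 169.8 with 3MB-PP1 and 153 to 160.1 untreated in the GSK3α line. Tubb3, a neuronal tubulin, and Nes, an intermediate filament of neural progenitors, made up most of that sum, while the defining marker Neurog1 had no values. Both were higher with 3MB-PP1 in the GSK3β line (Tubb3 179 with 3MB-PP1 and 125 untreated, log2 0.52, limma adjusted p = 4.15e-08, and Nes 32.3 with 3MB-PP1 and 22.3 untreated, 0.51, adjusted p = 7.12e-06). Neurod1 was lower (6.16 with 3MB-PP1 and 8.87 untreated, -0.46, adjusted p = 0.00352). The median of the 6 was -0.09. Mesendoderm markers, 5 of 6 with values, summed to 5.20 to 6.06 with 3MB-PP1 and 3.87 to 4.62 untreated in the GSK3β line, and to 6.22 to 6.96 with 3MB-PP1 and 7.27 to 8.19 untreated in the GSK3α line. Of the 4 tested, 2 were higher and 0 lower in the GSK3β line by limma, Gsc (1.82 with 3MB-PP1 and 0.943 untreated) and Evx1 (1.46 with 3MB-PP1 and 0.704 untreated). Mixl1 had 0.513 with 3MB-PP1 and 0.593 untreated and Foxa1 0.911 with 3MB-PP1 and 1.245 untreated. The marker T had 0.928 with 3MB-PP1 and 0.758 untreated in the GSK3β line and did not pass. In the GSK3α line T had 2.81 with 3MB-PP1 and 3.51 untreated, the largest part of that line's sum. Trophoblast markers, 6 of 10 with values, summed to 24.2 to 26.6 with 3MB-PP1 and 20.3 to 21.1 untreated in the GSK3β line, and to 17.7 to 19.7 with 3MB-PP1 and 18.4 to 19.4 untreated in the GSK3α line. None of the 5 tested trophoblast markers passed in the GSK3β line by limma, and the largest rise in value was that of Cdx2, which was below the filter (2.85 with 3MB-PP1 and 0.258 untreated). Elf5, Plac1, Tpbpa and Prl3d1 had no values. Primitive endoderm markers, 7 of 10 with values, summed to 10.99 to 12.57 over all 8 libraries, and fibroblast markers, 3 of 8 with values, to 13.3 to 13.9 with 3MB-PP1 and 12.94 to 14.01 untreated in the GSK3β line and to 10.3 to 11.4 with 3MB-PP1 and 9.34 to 9.74 untreated in the GSK3α line. The sums of neural, mesendoderm and trophoblast markers, which rest on these few genes, were higher with 3MB-PP1 in the GSK3β line. The neural sum was higher with 3MB-PP1 in the GSK3α line too. Cdkn1a, Cdkn1c and Ccng2 passed in the GSK3β line and not in the GSK3α line. The part of these markers in those results was not tested.

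The D-type cyclins showed small changes. Ccnd1, which encodes cyclin D1, a cyclin that growth factors and Wnt signalling induce (chromosome 7, 144929931 to 144939925, minus strand), had 165 and 172 with 3MB-PP1 and 185 and 182 untreated in the GSK3β line. The groups did not overlap, and Ccnd1 fell by 0.12 on the log2 scale (SE 0.03, limma adjusted p = 0.0148). That call ended without the first untreated library (adjusted p = 0.086), without the first treated library (0.236) and without limma's trend (0.123). Cells of the GSK3α line had 152 and 151 with 3MB-PP1 and 151 and 147 untreated, a log2 value of 0.03 (limma adjusted p = 0.792). Ccnd2, the gene of cyclin D2 (chromosome 6, 127125162 to 127152193, minus strand), had 36.5 and 37.1 with 3MB-PP1 and 41.4 and 43.6 untreated in the GSK3β line, and 28.2 and 28.2 with 3MB-PP1 and 35.4 and 32.0 untreated in the GSK3α line. It was lower with 3MB-PP1 in both lines and in every treated library, with log2 changes of -0.20 ± 0.05 in the GSK3β line (limma adjusted p = 0.0132) and -0.25 ± 0.05 in the GSK3α line (limma adjusted p = 0.0297). The difference between the lines was 0.05, with a 95% interval of -0.11 to 0.20 (limma adjusted p = 0.788).

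Both calls of Ccnd2 depended on single libraries. In the GSK3β line the call ended without the second untreated library (adjusted p = 0.0814), without the first (0.12) or the second (0.0526) treated library, and without limma's trend (0.0813). In the GSK3α line it ended without the first untreated library (0.256), without the first (0.287) or the second (0.179) treated library, and without the trend (0.255), and the log2 value stayed between -0.32 and -0.18 over all libraries left out in turn. Ccnd3, the gene of cyclin D3 (chromosome 17, 47505051 to 47599691, plus strand), had 231 and 221 with 3MB-PP1 and 215 and 215 untreated in the GSK3β line, where the treated libraries were higher but the log2 change of 0.07 did not pass (limma adjusted p = 0.152). For the GSK3α line the values were 161 and 159.8 with 3MB-PP1 and 159.6 and 166 untreated, and the groups overlapped (log2 -0.02, limma adjusted p = 0.878).

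The E-type cyclins were lower with 3MB-PP1 in all treated libraries of both lines. Ccne1, the gene of cyclin E1, the partner of CDK2 at S-phase entry (chromosome 7, 38097984 to 38107534, minus strand), had 162 and 167 with 3MB-PP1 and 196 and 188 untreated in the GSK3β line. It fell there by 0.22 on the log2 scale (SE 0.03, limma adjusted p = 0.000157), with no overlap between the groups. In the GSK3α line the values were 175 and 178 with 3MB-PP1 and 199.6 and 191 untreated, without overlap, and the log2 change of -0.14 ± 0.03 missed the threshold (limma adjusted p = 0.0547). It passed with median-ratio scaling (adjusted p = 0.0432), with the libraries of the GSK3α line alone (0.0345) and without either untreated library of the GSK3β line (0.0234 without the first and 0.0235 without the second). Ccne2, which encodes the close relative cyclin E2 (chromosome 4, 11191351 to 11204779, plus strand), had 16.04 and 16.02 with 3MB-PP1 and 21.44 and 21.04 untreated in the GSK3β line, a log2 change of -0.38 ± 0.06 (limma adjusted p = 0.000298). Its GSK3α values were 13.99 and 13.85 with 3MB-PP1 and 15.9 and 15.7 untreated, a log2 value of -0.17 that did not pass (limma adjusted p = 0.262). The differences between the lines did not pass for either gene: -0.08 for Ccne1 (95% interval -0.18 to 0.02, limma adjusted p = 0.37) and -0.21 for Ccne2 (-0.40 to -0.03, limma adjusted p = 0.175).

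Of the G-type cyclins, 1 of 2 passed in the GSK3β line. Ccng2, the FOXO target (chromosome 5, 93267257 to 93276231, plus strand), had 10.3 and 10.5 with 3MB-PP1, against 21.2 and 19.7 in untreated cells. The treated libraries lay far below the untreated ones, with means of 10.4 ± 0.131 with 3MB-PP1 and 20.5 ± 1.02 untreated (SD, n = 2 each), and Ccng2 fell by 0.91 on the log2 scale (SE 0.07, limma adjusted p = 1.73e-08). Cells of the GSK3α line had 16.03 and 16.88 with 3MB-PP1 and 18.86 and 18.88 untreated. These groups did not overlap either, but the log2 value of -0.19 ± 0.07 did not pass (limma adjusted p = 0.247), and the changes differed between the lines by -0.72 ± 0.09 (limma adjusted p = 7.87e-05). Ccng1, whose promoter is shown above (chromosome 11, 40748552 to 40755311, minus strand), had 401 and 416 with 3MB-PP1 and 428 and 426 untreated in the GSK3β line, and 496 and 505 with 3MB-PP1 and 530.0 and 521 untreated in the GSK3α line. It was slightly lower in the treated libraries of both lines, with log2 values of -0.06 in the GSK3β line (limma adjusted p = 0.155) and -0.07 in the GSK3α line (limma adjusted p = 0.335), and neither passed.

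The median log2 change of the 10 genes with 3MB-PP1 was -0.16 in the GSK3β line, and that of all tested genes -0.01. For the GSK3α line these medians were -0.11 and 0.01. The differences of the changes between the lines not yet given were -0.11 for Cdkn1b (95% interval -0.22 to 0.00, limma adjusted p = 0.247), -0.15 for Ccnd1 (limma adjusted p = 0.0577), 0.09 for Ccnd3 (-0.01 to 0.19, limma adjusted p = 0.272) and 0.01 for Ccng1 (-0.08 to 0.09, limma adjusted p = 0.954), and none of these passed. That of Ccnd1 passed with quantile normalization (-0.18, limma adjusted p = 0.0281) and without the second untreated library of the GSK3β line (-0.16, limma adjusted p = 0.0447). By class, 1 CIP/KIP inhibitor was higher, 1 lower and 1 did not pass in the GSK3β line, 2 of 3 D-type and both E-type cyclins were lower, and 1 of the G-type cyclins was lower.

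**Figure D2:**
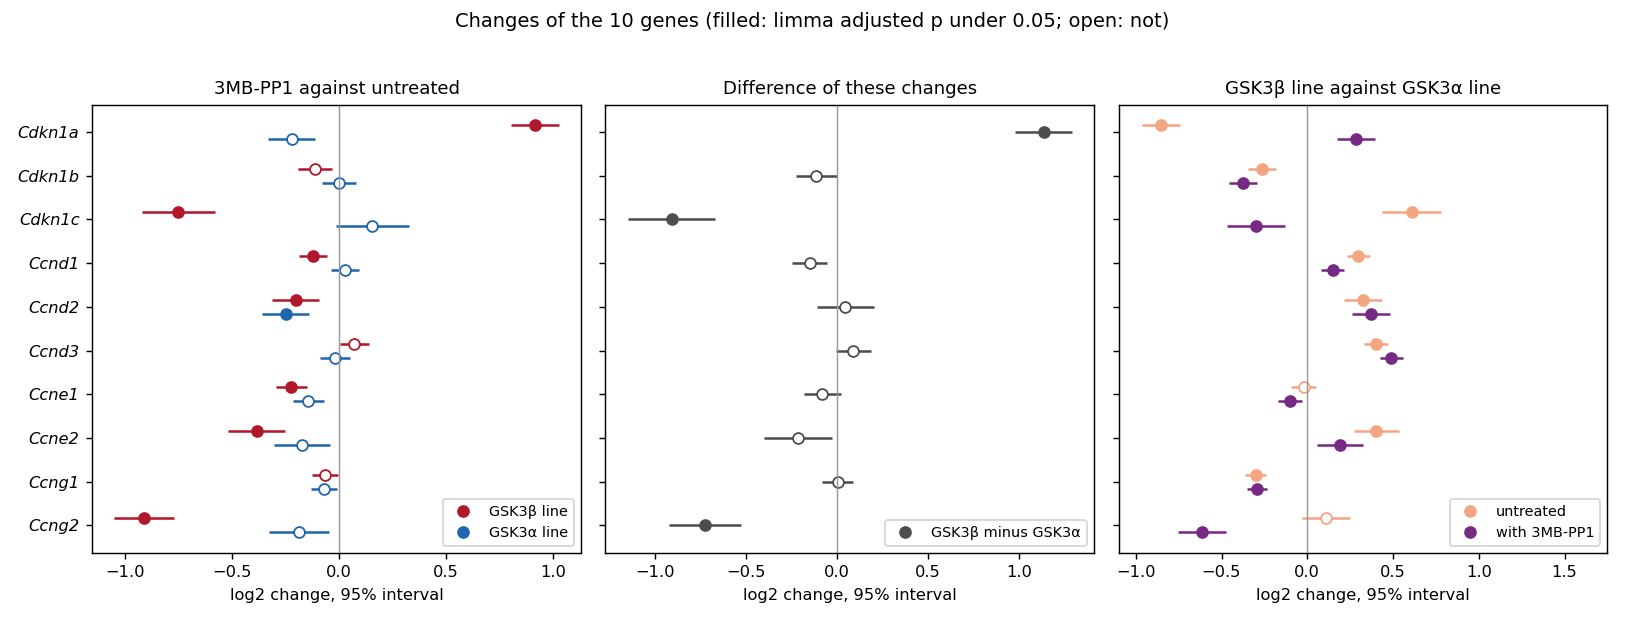
Log2 changes of the 10 genes with 95% intervals from limma: 3MB-PP1 against untreated in each line (left), the GSK3β minus the GSK3α change (middle) and the GSK3β line against the GSK3α line, untreated and with 3MB-PP1 (right); filled points have an adjusted p under 0.05. Cdkn1a at 0.92, Cdkn1c at -0.75 and Ccng2 at -0.91 lie far from 0 in the GSK3β line, and the same 3 genes are the filled points in the middle.

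The second question is how the lines differed before treatment. The untreated libraries of both lines also enter the comparisons above, so the results are not independent of each other. Untreated GSK3β cells had more RNA of all 3 D-type cyclins: Ccnd3 averaged 215 ± 0.363 in the GSK3β line and 163 ± 4.40 in the GSK3α line (SD, n = 2 each; log2 difference 0.40, limma adjusted p = 9.29e-09), Ccnd1 183 ± 2.01 in the GSK3β line and 149 ± 2.31 in the GSK3α line (0.30, adjusted p = 4.45e-07) and Ccnd2 42.5 ± 1.58 in the GSK3β line and 33.7 ± 2.36 in the GSK3α line (0.33, adjusted p = 5.37e-05). Ccne2 was higher too, with 21.2 ± 0.284 in the GSK3β line and 15.8 ± 0.144 in the GSK3α line (0.40, limma adjusted p = 3.66e-05), whereas Ccne1 did not pass (-0.02, limma adjusted p = 0.624). Among the inhibitors Cdkn1a was lower in the GSK3β line, at 39.0 ± 3.66, against 71.0 ± 1.16 in the GSK3α line (-0.85, limma adjusted p = 1.99e-10), and Cdkn1b was lower by a smaller amount (-0.26, limma adjusted p = 1.4e-05). Cdkn1c was higher, at 28.4 ± 4.48 in the GSK3β line and 18.2 ± 1.28 in the GSK3α line (0.61, limma adjusted p = 6.07e-06). Ccng1 was lower (-0.30, limma adjusted p = 9.77e-08) and Ccng2 did not pass (0.11, limma adjusted p = 0.181). That makes 5 higher and 3 lower of 10, in a comparison that 48.2% of all tested genes passed.

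With 3MB-PP1 in both lines, a comparison added after the values had been seen, all 10 genes differed between the GSK3β and the GSK3α line, 5 higher and 5 lower, where 49% of all tested genes passed (21.2% higher and 27.7% lower). Cdkn1a was then the higher one in the GSK3β line, with 74.4 ± 3.03, against 60.8 ± 2.35 in the GSK3α line (SD, n = 2 each; log2 0.29, limma adjusted p = 0.000188), the opposite of its order in untreated cells. Cdkn1c had 16.4 ± 0.122 in the GSK3β line and 20.3 ± 0.761 in the GSK3α line (-0.30, limma adjusted p = 0.00529) and Ccng2 10.4 ± 0.131 in the GSK3β line and 16.5 ± 0.599 in the GSK3α line (-0.61, adjusted p = 4.5e-07). Cdkn1c thus also lay in the opposite order to untreated cells, while its call ended without the first treated library of the GSK3α line (adjusted p = 0.0583) and without the trend (0.0547). Ccnd1, Ccnd2, Ccnd3, Cdkn1b, Ccng1 and Ccne2 kept the sign they had in untreated cells. For Ccne2 (0.19, limma adjusted p = 0.0174) the call ended without any single treated library, with adjusted p = 0.0564 and 0.0739 without those of the GSK3α line and 0.0781 and 0.0748 without those of the GSK3β line. For Ccne1 (-0.10, limma adjusted p = 0.0193) it ended with median-ratio scaling (0.098), without the trend (0.112), without the second treated library of the GSK3α line (0.119) and without the first of the GSK3β line (0.165).

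Levels were compared between genes per kb of the principal transcript. Ccng1 had the highest level per kb in all 4 groups, with 116 ± 3.07 with 3MB-PP1 and 121.5 ± 0.312 untreated in the GSK3β line, and 143 ± 1.77 with 3MB-PP1 and 149.7 ± 1.73 untreated in the GSK3α line (SD, n = 2 each). In the GSK3β line Ccnd3 came next and Ccne1 after it, with 107 ± 3.32 for Ccnd3 and 82.3 ± 1.78 for Ccne1 with 3MB-PP1, and 102 ± 0.172 for Ccnd3 and 96.1 ± 3.00 for Ccne1 untreated. In the GSK3α line these genes stood in the other order, with 88.3 ± 1.09 for Ccne1 and 76.0 ± 0.534 for Ccnd3 with 3MB-PP1, and 97.5 ± 3.20 for Ccne1 and 77.0 ± 2.08 for Ccnd3 untreated. Ccnd1 followed in every group at 39.8 to 49.0, then Cdkn1a, Cdkn1b and Cdkn1c. Ccnd2, Ccne2 and Ccng2 were the lowest in every group, between 3.71 and 7.28. Neighbours in this order whose libraries overlapped were Cdkn1b and Cdkn1c, and Ccng2 and Ccne2, in the untreated GSK3β line, and Ccnd2 and Ccne2 in the untreated GSK3α line. Per kb of all annotated exons, Ccne1 stood above Ccnd3 in all 4 groups. In the untreated GSK3β line these levels were 72.2 for Ccne1 and 24.5 for Ccnd3.

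**Figure D3:**
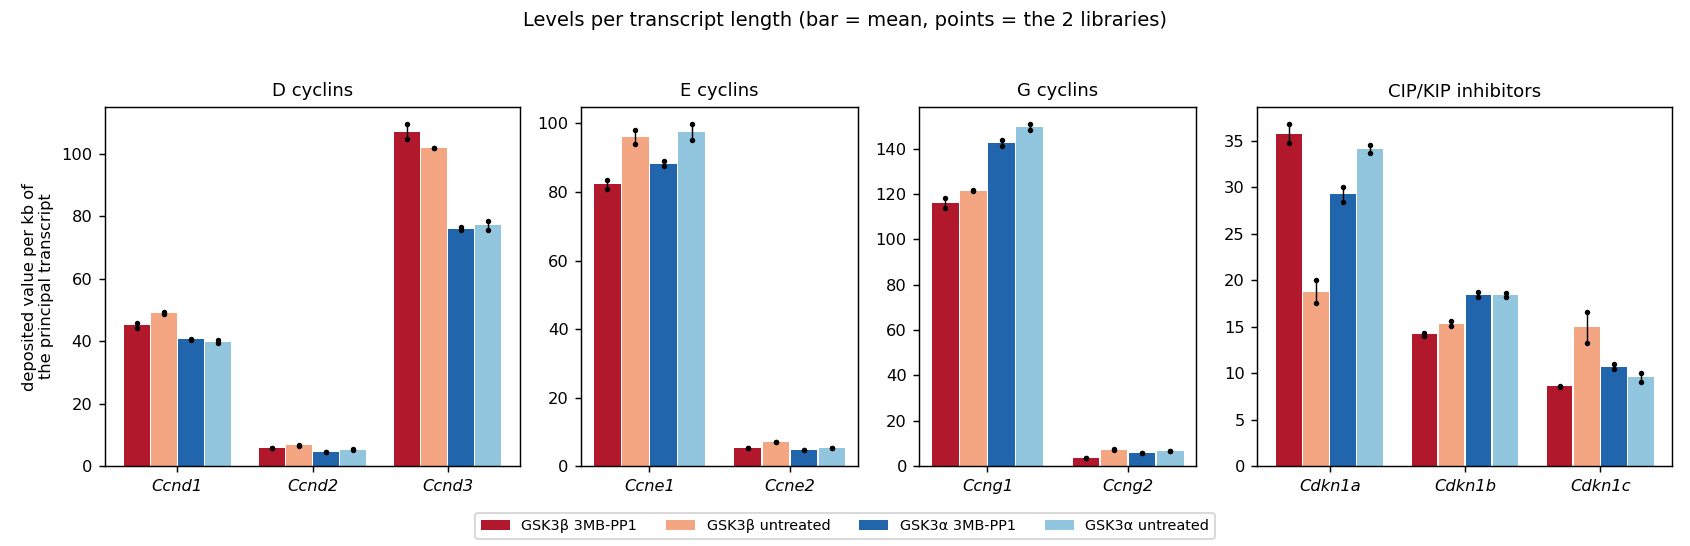
Deposited value per kb of the principal transcript, 1 panel a class with its own y axis from 0; bars are group means, points the 2 libraries and the thin line joins them. Ccng1, Ccnd3 and Ccne1 stand highest in their classes, and Cdkn1a lies near Cdkn1b in the untreated GSK3β line and well above it in the other 3 groups.

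Within the E and G classes 1 gene held most of the level per kb. Ccne1 made up 93.9% of the E-type cyclins with 3MB-PP1 and 93.2% untreated in the GSK3β line, and 95.02% with 3MB-PP1 and 94.88% untreated in the GSK3α line. Ccng1 made up 96.9% of the G-type cyclins with 3MB-PP1 and 94.4% untreated in the GSK3β line, and 96.1% with 3MB-PP1 and 95.7% untreated in the GSK3α line. Among the inhibitors the share of Cdkn1a was 61.1 ± 1.28% with 3MB-PP1 and 38.3 ± 0.693% untreated in the GSK3β line, and 50.1 ± 0.284% with 3MB-PP1 and 54.9 ± 1.26% untreated in the GSK3α line (SD, n = 2 each). The share of Cdkn1c was 14.7 ± 0.401% with 3MB-PP1 and 30.4 ± 2.51% untreated in the GSK3β line, and 18.3 ± 0.0812% with 3MB-PP1 and 15.4 ± 0.986% untreated in the GSK3α line. The summed level of the 3 inhibitors per kb, 58.5 ± 1.16 with 3MB-PP1 and 49.0 ± 3.72 untreated in the GSK3β line, thus differed less between treated and untreated cells than did Cdkn1a or Cdkn1c. For the D-type cyclins the leading gene depends on the length used. Ccnd3 made up 62.8 to 67.8% by its principal transcript, but Ccnd1 led with 54.6 to 60.2%, and Ccnd3 had 34.2 to 39.4%, when all annotated exons were counted, since Ccnd3 has 2113 bases in the first case and 8775 in the second. Counted that way the share of Cdkn1a among the inhibitors was 48.5 ± 1.35% with 3MB-PP1 and 27.3 ± 0.646% untreated in the GSK3β line, and 37.6 ± 0.273% with 3MB-PP1 and 42.2 ± 1.22% untreated in the GSK3α line, so the order of levels between genes holds for the principal transcripts only.

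Genes of the same pathway were described from lists, which were also chosen with earlier results of these data known. Their counts are set beside the shares of all tested genes that passed, as a description. These shares were 14.9% in the GSK3β line (7.49% higher and 7.44% lower), 0.881% in the GSK3α line and 6.53% for the difference between the lines. All 13 CDKs and activators were tested, and in the GSK3β line 0 were higher and 5 lower with 3MB-PP1. Cdc25b, a phosphatase that activates CDK1, averaged 43.3 with 3MB-PP1 and 51.7 untreated (log2 -0.25, limma adjusted p = 0.00128), Wee1, a kinase that inhibits CDK1, 77.7 with 3MB-PP1 and 89.0 untreated (-0.19, adjusted p = 0.00119), Ccna2, cyclin A2, 277 with 3MB-PP1 and 307 untreated (-0.15, adjusted p = 0.00147) and the CDK-activating kinase Cdk7 87.2 with 3MB-PP1 and 96.6 untreated (-0.15, adjusted p = 0.0196). Those that fell thus include both an activator and an inhibitor of CDK1. None of the 13 passed in the GSK3α line by limma, and the difference between the lines passed for Cdc25b (-0.35, limma adjusted p = 0.0038) and Wee1 (-0.19, limma adjusted p = 0.0348). Of the 4 INK4 inhibitors, which block CDK4 and CDK6, Cdkn2b passed in the GSK3β line, with 5.6 with 3MB-PP1 and 7.27 untreated (-0.33, limma adjusted p = 0.0342).

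The RB and E2F family stands downstream of the cyclins. In the GSK3β line 0 of 13 were higher and 5 lower, against 7.49% and 7.44% of all tested genes. The 4 with the largest changes were E2f2, an activating E2F (13.7 with 3MB-PP1 and 19.6 untreated, log2 -0.49, limma adjusted p = 0.000428), the repressor E2f8 (32.2 with 3MB-PP1 and 42.2 untreated, -0.38, adjusted p = 0.000189), the E2F partner Tfdp2 (92 with 3MB-PP1 and 108.9 untreated, -0.24, adjusted p = 0.000424) and Rb1 (29.8 with 3MB-PP1 and 34.7 untreated, -0.21, adjusted p = 0.00787). The retinoblastoma gene itself was thus among those that fell. Of the 13, 1 passed in the GSK3α line, where 0.881% of all tested genes did: E2f1, which was higher (39.9 with 3MB-PP1 and 33.3 untreated, 0.26, limma adjusted p = 0.0208). The difference between the lines, which passed for 6.53% of all tested genes, did so for E2f8, E2f1 and Tfdp2, with log2 values of -0.31, -0.27 and -0.27. Among 18 subunits and cofactors of ubiquitin ligases that act on cyclins and CIP/KIP proteins, 1 was higher and 3 lower in the GSK3β line, not far from the 14.9% of all tested genes. These were Ddb1 (0.11, limma adjusted p = 0.0445), Cks1b (-0.18, adjusted p = 0.00349), Skp2 (-0.14, adjusted p = 0.0145) and Cdc20 (-0.13, adjusted p = 0.00328), of which Skp2 and Cks1b recognise p27. Cul3 (-0.14, limma adjusted p = 0.0383) was the gene that passed in the GSK3α line, and no difference between the lines passed by limma among these 18.

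Transcription factors known to regulate the 10 genes had 2 higher and 5 lower of 16 in the GSK3β line, against 7.49% and 7.44% of all tested genes. Myc, which represses Cdkn1a and induces Ccnd2, averaged 20.1 with 3MB-PP1 and 37.3 untreated in that line (log2 -0.86, limma adjusted p = 4.79e-08), and 27.2 with 3MB-PP1 and 38.4 untreated in the GSK3α line (-0.48, limma adjusted p = 0.00154). Klf4, an activator of Cdkn1a, averaged 193 with 3MB-PP1 and 128 untreated in the GSK3β line (0.59, limma adjusted p = 5.04e-10) and did not pass in the GSK3α line, where it had 146 with 3MB-PP1 and 139.9 untreated (0.06, limma adjusted p = 0.476). Lef1, a DNA-binding partner of β-catenin, had 9.60 with 3MB-PP1 and 15.4 untreated in the GSK3β line (-0.63, limma adjusted p = 1.93e-05), and Foxo1, one of the FOXO factors, 25.3 with 3MB-PP1 and 30.6 untreated (-0.27, limma adjusted p = 0.00267). Of these 16, 2 in the GSK3α line were lower, against 0.616% of all tested genes, Myc and Mycn (-0.16, limma adjusted p = 0.0304). The differences between the lines, 6.53% over all tested genes, passed for Klf4 (0.53, limma adjusted p = 6.16e-07), Lef1 (-0.49, adjusted p = 0.0135) and Myc (-0.38, adjusted p = 0.0208).

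Among 19 tested genes of 20 other p53 targets, 0 passed as higher, 8 passed as lower and 11 did not pass in the GSK3β line, against 7.49% higher and 7.44% lower of all tested genes. The median of the 19 was -0.10, and that of all tested genes -0.01. The lower ones included Bbc3, the pro-apoptotic PUMA (26.96 with 3MB-PP1 and 38.34 untreated, log2 -0.49, limma adjusted p = 1.31e-05), the antiproliferative Btg2 (67.7 with 3MB-PP1 and 89.0 untreated, -0.39, adjusted p = 7.85e-07), the receptor Eda2r (119.5 with 3MB-PP1 and 151 untreated, -0.33, adjusted p = 2.54e-06) and Pmaip1, the pro-apoptotic NOXA (44.8 with 3MB-PP1 and 53.5 untreated, -0.25, adjusted p = 0.00185). Trp53 itself, the gene of p53, averaged 384 with 3MB-PP1 and 379.5 untreated and did not pass (0.02, limma adjusted p = 0.797). Of the 19, 1 passed in the GSK3α line, where 0.881% of all tested genes did: Pmaip1 (53.7 with 3MB-PP1 and 68.2 untreated, -0.34, limma adjusted p = 0.00195). The difference between the lines, with 6.53% of all tested genes passing, passed for Bbc3, Btg2 and Eda2r, at -0.44, -0.24 and -0.23. Of 12 other FOXO targets, 1 was higher and 4 lower in the GSK3β line, against the same 7.49% and 7.44%. These were Sod2 (0.19, limma adjusted p = 0.000799), and Fbxo32 (3.34 with 3MB-PP1 and 5.30 untreated, -0.54, adjusted p = 0.00243), Bcl2l11 (19.9 with 3MB-PP1 and 26.7 untreated, -0.41, adjusted p = 2.05e-05), Trib1 (21.5 with 3MB-PP1 and 27.5 untreated, -0.34, adjusted p = 0.000564) and Pik3ca (27.6 with 3MB-PP1 and 32.1 untreated, -0.21, adjusted p = 0.00889). Ccng2 fell by more than any of these. None of the 12 passed in the GSK3α line by limma, and the difference between the lines passed for Bcl2l11 (-0.30, limma adjusted p = 0.0184) and Sod2 (0.19, limma adjusted p = 0.0282).

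**Figure D4:**
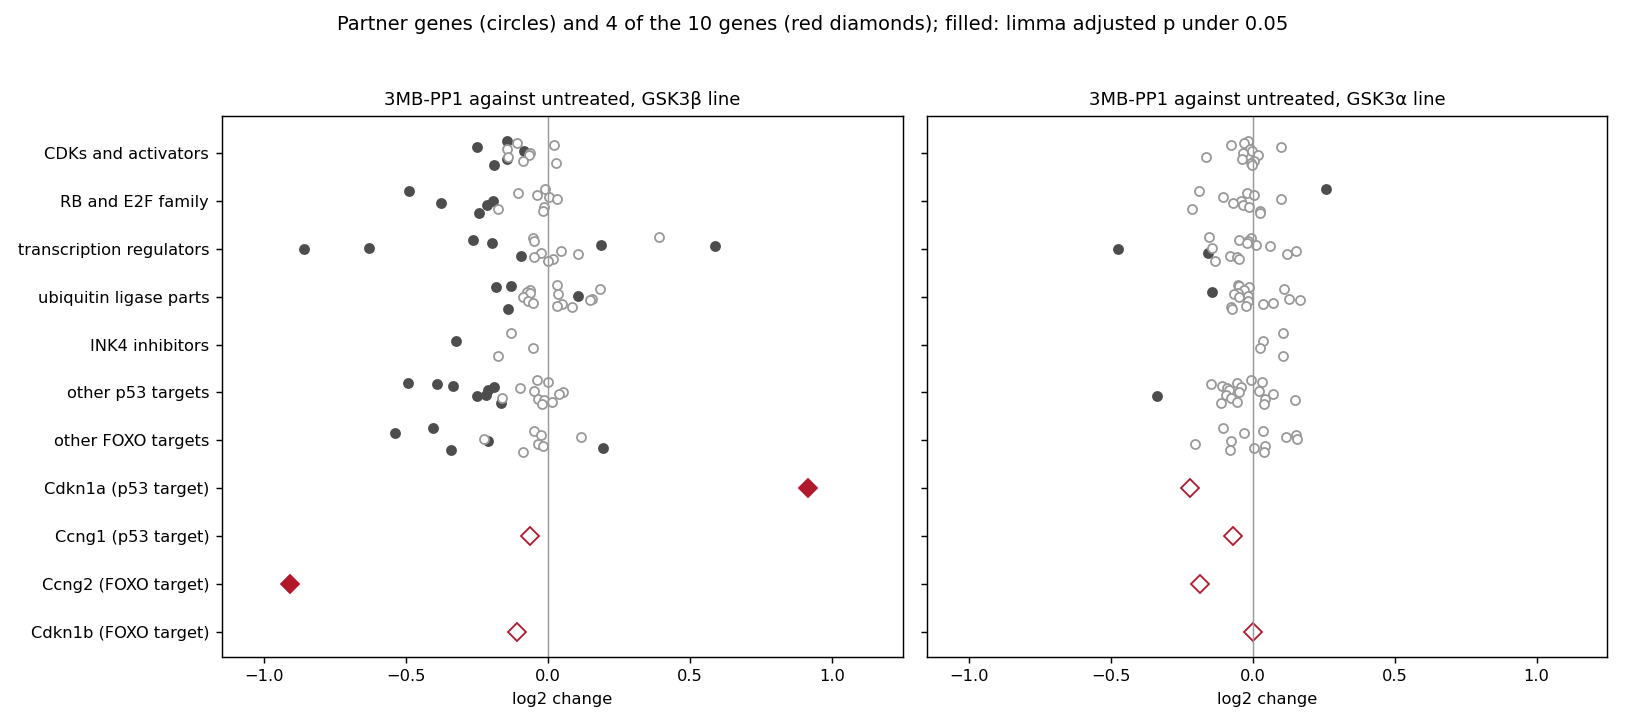
Log2 changes with 3MB-PP1 of the genes of 7 lists (circles, 1 a gene) and of Cdkn1a, Ccng1, Ccng2 and Cdkn1b (red diamonds), in the GSK3β line (left) and the GSK3α line (right); filled symbols have a limma adjusted p under 0.05. Cdkn1a at 0.92 stands to the right of the other p53 targets tested and Ccng2 at -0.91 to the left of the other FOXO targets in the GSK3β line.

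The untreated lines differed in members of each list as well. For the other p53 targets 2 of 19 were higher and 9 lower in the GSK3β line, among them Aen (200.3 in the GSK3β line and 318 in the GSK3α line, log2 -0.67, limma adjusted p = 3.63e-12) and Eda2r (151 in the GSK3β line and 96.02 in the GSK3α line, 0.65, adjusted p = 4.53e-11). For the other FOXO targets 4 of 12 were higher and 3 lower, led by Pdk4 (6.10 in the GSK3β line and 3.25 in the GSK3α line, 0.74, limma adjusted p = 1.64e-05). Among the regulators 4 of 16 were higher and 5 lower, led by Foxo4 (67.6 in the GSK3β line and 35.0 in the GSK3α line, 0.93, limma adjusted p = 1.54e-11). The CDK list had 6 of 13 higher and 1 lower, the RB and E2F list 6 and 1 of 13, the INK4 list 2 and 0 of 4, and the ubiquitin ligase list 6 and 4 of 18, all read against 48.2% of all tested genes.

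The genes whose values ran most like each of the 10 over the 8 libraries were found by Pearson's r of log2(value + 1), as a description without a test, since the libraries fall into 4 groups. For Cdkn1a they were Slc5a6, a vitamin transporter (r = 0.983), and Id3, an inhibitor of bHLH factors (0.978), which averaged 57.1 with 3MB-PP1 and 35.8 untreated in the GSK3β line. For Cdkn1b they were Akap13 (0.998) and Pqlc1 (0.994), and for Cdkn1c Jund (0.974) and Lrp2 (0.968). For Ccnd1 they were Spryd7 (0.995) and Mest (0.991), for Ccnd2 Lefty2, a Nodal antagonist, and Lcorl (both 0.980), and for Ccnd3 Fbp2 (0.9995) and Prps1 (0.999). For Ccne1 they were Mob4 (0.992) and Skil (0.990), for Ccne2 Myrf (0.989) and Memo1 (0.985), for Ccng1 Etnk1 (0.996) and Hat1 (0.995), and for Ccng2 Rarg (0.992) and Pmepa1 (0.989).

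Antisense genes share exon bases with 6 of the 10 genes in the GENCODE annotation, and the counting is not stated to use strand, so such reads cannot be told apart. Ints8, which overlaps Ccne2, averaged 79.0 with 3MB-PP1 and 77.6 untreated in the GSK3β line (log2 0.03, limma adjusted p = 0.684), and Bysl, which overlaps Ccnd3, 118 with 3MB-PP1 and 113 untreated (0.07, limma adjusted p = 0.272). Oraov1, which overlaps Ccnd1, had 15.9 with 3MB-PP1 and 14.8 untreated (0.09, limma adjusted p = 0.389). None of the 3 passed in that comparison, while Ints8 was lower in the untreated GSK3β line than in the untreated GSK3α line (-0.13, limma adjusted p = 0.00576), where Ccne2 was higher. With 3MB-PP1 in both lines, Bysl was higher in the GSK3β line (118 in the GSK3β line and 106 in the GSK3α line, 0.15, limma adjusted p = 0.00336), as was Ccnd3 (0.49). Ints8 was lower there (-0.09, limma adjusted p = 0.037), where Ccne2 was higher. The antisense genes at Cdkn1a, Cdkn1c and Ccnd2 were matched to no values here. Ccnd3 has an annotated processed pseudogene on chromosome 4 with which it could share reads, so its level is uncertain to that extent.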

How the data were processed

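The deposited file holds signal values for 8 libraries: estimated gene counts, which the authors scaled so that the upper quartile is equal to within 0.0549%. TopHat2, Partek and the build mm10 are named per the submitters' processing notes, and versions, annotation and strand are not given in the sources used here. Reads were estimated as a library's sum divided by its smallest value, which takes that value as 1 read. If an estimated count can be a fraction of a read, this overstates the reads and understates the counting error. The design foresaw values that are not counts, so limma-trend (limma 3.58.1, R 4.3.3, data.table version 1.17.8) was run on log2(value + 1), for the 13959 genes with a mean of at least 1, leaving out 3529, with 4 group means, 4 residual degrees of freedom and two-sided Benjamini-Hochberg adjusted p-values over all tested genes in each of 5 comparisons. It was tested on simulated data. Positions and lengths are from GENCODE on mm10 and promoters from RefSeq. The members, lists and tests were chosen with earlier results of these data known. All 10 members were named, up to 4 list members past the threshold in each comparison by size of change, and the 2 genes of mean at least 10 most like each member in Pearson's r. Trp53, and values given for a gene in a comparison it did not pass, were added after the values were seen, as was the comparison of the lines with 3MB-PP1. Alternatives were a pseudocount of 0.1, no filter, quantile normalization, median-ratio scaling, only the groups compared, no trend, a replicate block, and each library left out.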

Additional observations from a re-analysis of the deposited data

Results flagged for a closer look

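The inhibitor's change differed between the lines, by the limma test of that difference, in 3 of the 10 genes, against 6.53% of all tested genes. For Cdkn1a the difference, GSK3β minus GSK3α, was 1.14 on the log2 scale (limma adjusted p = 4.84e-08), with changes of 0.92 in the GSK3β line and -0.22 in the GSK3α line. For Cdkn1c it was -0.91 (limma adjusted p = 5.65e-05), with changes of -0.75 in the GSK3β line and 0.16 in the GSK3α line. For Ccng2 it was -0.72 (limma adjusted p = 7.87e-05), with changes of -0.91 in the GSK3β line and -0.19 in the GSK3α line. Untreated GSK3β cells already had less Cdkn1a (log2 -0.85) and more Cdkn1c (0.61) than untreated GSK3α cells, and Ccng2 did not pass (0.11). The ratio of the treated GSK3β mean to the untreated GSK3α mean was 1.048 for Cdkn1a, 0.9 for Cdkn1c and 0.5521 for Ccng2.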

How the results depend on the processing

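With 2 libraries a group, few small changes are firm. Of the alternative values, 695 kept their direction and their side of the threshold, 22 lost the call, 11 gained one and 12 changed sign, none of them called. In the GSK3α line 1 of the 10 genes passed. That count was 3 with median-ratio scaling or with only the libraries of that line, 2 with the replicate block, where Cdkn1a passed too (adjusted p = 0.04), and 0 without limma's trend, and 0 to 3 when each library was left out. The fit with the replicate block is no paired result, since same-numbered libraries did not deviate together (r of their differences -0.0447 to 0.0271). In the GSK3β line the count was 5 to 7. The calls of Cdkn1a, Cdkn1c, Ccng2, Ccne1 and Ccne2 in that line held under every alternative run. Signs turned for Cdkn1b in the GSK3α line (-0.0056 with median-ratio scaling, -0.0209 to 0.0223 with libraries left out) and for Ccnd3 in the GSK3α line (-0.0457 to 0.0091). They also turned in the difference between the lines for Ccng1 (-0.0255 with quantile normalization, -0.0206 to 0.0331 with libraries left out) and Ccnd2 (-0.0227 to 0.1161). In the untreated lines Ccne1 turned (0.0191 with quantile normalization, -0.0552 to 0.0114 with libraries left out). The causes were not tested. Over all tested genes limma called 980 in the GSK3β line, 3 in the GSK3α line and 133 for the difference when run without its trend, against 2084, 123 and 911 with it. The fit with only the groups compared could not be made for the difference between the lines, which uses all 8 libraries.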
